A study of Homo sapiens with 3 samples.

Results

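The cells described here held abundant transcripts of both insulin (INS) and glucagon (GCG) under one cell barcode, and are called INS+GCG+ cells. A barcode was kept if it had at least 1000 genes, at most 20% mitochondrial UMIs (unique molecular identifiers, each counting 1 captured RNA molecule) and at least 0.2% of its UMIs from the nuclear RNA MALAT1. A kept cell was INS+GCG+ if, per 10000 UMIs, INS reached 300, GCG reached 150 and TPH1, the enzyme that starts serotonin synthesis, stayed under 1. This rule took 299 of 5929 kept cells, from 9889 barcodes in all. Cells past the INS limit alone (INS-only, 2009 cells) and past the GCG limit alone (GCG-only, 1006 cells), both also under the TPH1 limit, served for comparison. The cells were thus chosen by their levels of INS, GCG and TPH1, so their levels are given as a description and were not tested.

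The cells came from islets differentiated from HUES8, a human embryonic stem cell line. The dispersed islet cells were sorted with magnets and an antibody to CD49a, the integrin alpha 1 subunit encoded by ITGA1. CD49a-positive, CD49a-negative and unsorted cells each formed new aggregates over 7 days and were then dispersed for droplet single-cell RNA sequencing. There was 1 library per sorting group, all of the same line, so differences between groups have no replicate check.

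Beta cells of the islet store and release insulin, and alpha cells release glucagon. In fetal human pancreas and in stem cell cultures some endocrine cells carry both hormones. The homeodomain factors PDX1, NKX6-1 and PAX4 act on the beta cell side, and the Iroquois factors IRX1 and IRX2 are enriched in alpha cells. In droplet data, both hormone RNAs under one barcode can come from 1 cell, from a pair of cells caught together, or from RNA free in the suspension. Depth and the hormone levels in other barcodes are therefore given beside the results, and these sources cannot be told apart for a single cell here.

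On the GRCh38 build, in the GENCODE 29 annotation, INS lies on chromosome 11 (2159779 to 2161341, minus strand) and GCG on chromosome 2 (162142873 to 162152404). GCG is flanked by genes of 2 related serine proteases: DPP4 (161992241 to 162074542), which inactivates GLP-1, lies 68330 bases away, and FAP (162170684 to 162245151) lies 18279 bases away on the other side. The 250 bases before the RefSeq start of both hormone genes on GRCh38.p14 are shown because PDX1 and NKX6-1 are homeodomain proteins that bind a TAAT core, in capitals on either strand. The RefSeq starts lie inside the GENCODE 29 gene bounds above, so part of each window overlaps the gene as bounded there.
INS promoter, chr11:2161210-2161459, minus strand: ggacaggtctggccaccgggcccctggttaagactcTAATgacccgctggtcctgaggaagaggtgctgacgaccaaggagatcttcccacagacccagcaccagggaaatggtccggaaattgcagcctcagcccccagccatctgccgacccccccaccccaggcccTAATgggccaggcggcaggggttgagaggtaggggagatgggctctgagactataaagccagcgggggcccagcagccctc
GCG promoter, chr2:162152248-162152497, minus strand: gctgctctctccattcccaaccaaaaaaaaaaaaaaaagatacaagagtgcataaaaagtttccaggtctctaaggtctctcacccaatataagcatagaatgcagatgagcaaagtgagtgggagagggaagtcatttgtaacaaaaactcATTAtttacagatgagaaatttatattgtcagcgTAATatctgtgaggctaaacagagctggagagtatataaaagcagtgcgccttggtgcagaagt
Each window held 2 matches to TAAT or its reverse ATTA. Among 35116 promoters of the same length, 47.4% held at least 1 match and 27.6% at least 2, so 2 matches are common.

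The files held 127119509 UMIs in the CD49a-positive library, 88397368 in the CD49a-negative library and 114479071 in the unsorted library. Kept cells had median depths of 53184, 37623 and 44263 UMIs in that order. Pairs of libraries shared 6 (positive and negative), 2 (positive and unsorted) and 4 (negative and unsorted) barcodes, and no INS+GCG+ cell was among those shared with a kept cell. ITGA1, the sorted antigen, stood at 74.7 CPM (100 times the UMIs per 10000, over the summed cells) in INS+GCG+ cells of the positive library, at 29.6 CPM in those of the negative library and at 67.5 CPM in unsorted ones.

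INS+GCG+ cells held 302 to 2070 INS UMIs per 10000 (median 530) and 152 to 1608 GCG UMIs per 10000 (median 317). In absolute terms the median cell contained 4128 INS UMIs and 2430 GCG UMIs. No gap set these cells apart: 24 of them lay within 10% above the INS limit, and 26 otherwise eligible cells lay within 10% below it. At the GCG limit, 11 cells lay just inside and 7 just outside, and a further 41 cells met both hormone limits but had TPH1 at or above 1. In the scatter of both hormones, GCG-only cells spread up to the INS limit, while most INS-only cells stayed far below the GCG limit.

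**Figure D1:**
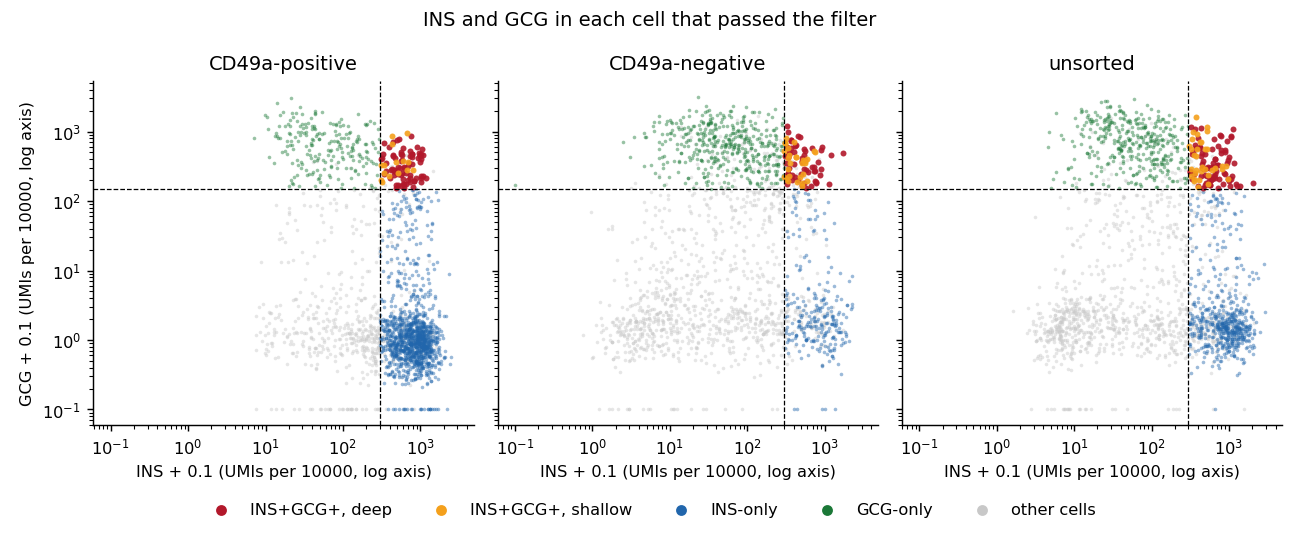
INS (x axis) against GCG (y axis) in each of the 5929 kept cells, as UMIs per 10000 plus 0.1 on log axes, by library. Dashed lines mark the limits of 300 and 150; the 299 INS+GCG+ cells are split by depth (deep in red, shallow in orange), and GCG-only cells run up to the INS limit without a gap.

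The markers fixed for these cells were INS, GCG and DPP4. In each library DPP4 stood between INS-only and GCG-only cells. Summed over cells, INS+GCG+ cells had 106 CPM of DPP4 in positive, 173 CPM in negative and 131 CPM in unsorted libraries. INS-only cells had 36.4, 54.6 and 38.4 CPM, and GCG-only cells 256, 268 and 222 CPM, in the same order of libraries. With each cell thinned to 10000 UMIs, DPP4 was detected in 56.5%, 69.7% and 58.6% of INS+GCG+ cells. The shares were 24.7%, 31.5% and 24.5% of INS-only cells and 71.5%, 75.8% and 70.2% of GCG-only cells. Thinning left out 1, 0 and 1 INS+GCG+ cells, 43, 4 and 4 INS-only cells and 4, 3 and 4 GCG-only cells that were shallower. Without thinning, the shares of INS+GCG+ cells with DPP4 were 92.5%, 96.6% and 93.2%, against 60.7%, 56.0% and 61.6% of INS-only and 89.6%, 92.9% and 88.4% of GCG-only cells. DPP4 was thus found in GCG-only cells as well, and at higher CPM than in INS+GCG+ cells in each library.

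INS+GCG+ cells were the deepest of the 3 classes in every library. Their median depth was 83964 UMIs in positive, 64509 in negative and 82051 in unsorted libraries. INS-only cells had medians of 58890, 43050 and 56939 UMIs, and GCG-only cells 40284, 38622 and 40157 UMIs. The ratio to INS-only cells was therefore 1.43, 1.5 and 1.44, and to GCG-only cells 2.08, 1.67 and 2.04. Against the sum of the INS-only and GCG-only medians, which a pair of typical cells would give, the ratio was 0.847, 0.790 and 0.845. At or above that sum lay 25.8% of INS+GCG+ cells in the positive library, 31.5% in the negative one and 32.5% among unsorted cells, against 11.4%, 9.52% and 14.6% of INS-only cells and 1.90%, 8.24% and 2.70% of GCG-only cells. The other INS+GCG+ cells lay below the sum.

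**Figure D2:**
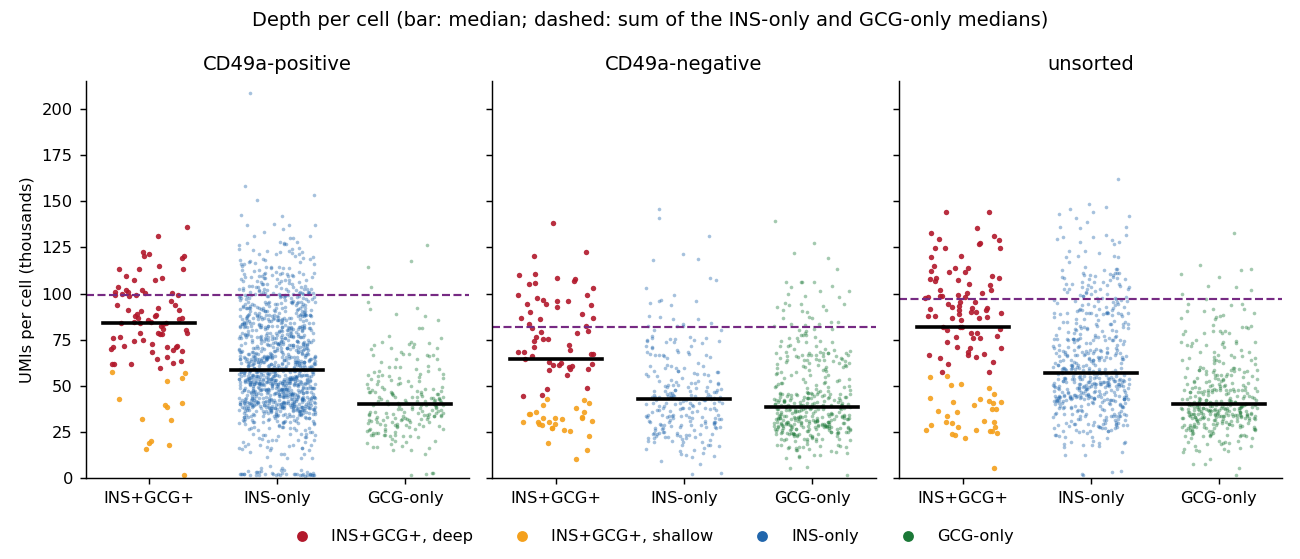
UMIs per cell, in units of 1000, for INS+GCG+, INS-only and GCG-only cells of each library, 1 point per cell, with the class median as a black bar and the sum of the INS-only and GCG-only medians as a dashed line. INS+GCG+ cells have the highest median in each library, and 78 of them (orange) lie at or below the INS-only median.

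Because depth bears on every later value, the cells were split at the median depth of INS-only cells of their own library. There were 78 shallow cells at or below it (15 positive, 29 negative, 34 unsorted) and 221 deep cells above it (78 positive, 60 negative, 83 unsorted). The median shallow cell had 38570, 30820 and 34861 UMIs, fewer than the median GCG-only cell of each library. This split was made on depth alone and not on any gene.

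INS+GCG+ cells made up 4.48% of kept cells in the positive library (93 of 2075, exact 95% interval 3.63 to 5.46), 4.94% in the negative library (89 of 1803, 3.98 to 6.04) and 5.70% in the unsorted library (117 of 2051, 4.74 to 6.80). All intervals cover counting error only. Positive minus negative, the shares differed by -0.454 percentage points, with an interval of -1.82 to 0.880. Positive minus unsorted, they differed by -1.22 points (-2.58 to 0.122), and negative minus unsorted by -0.768 points (-2.19 to 0.667). These intervals all include 0, so no difference was detectable at this number of cells. The other classes differed more between libraries. INS-only cells were 58.0% of positive, 14.0% of negative and 27.0% of all unsorted cells, and GCG-only cells 10.2%, 23.6% and 18.0%.

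Per 100 INS-only cells there were 7.73 INS+GCG+ cells in positive, 35.3 in negative and 21.1 in unsorted libraries. Per 100 GCG-only cells there were 44.1, 20.9 and 31.6. Set against the product of the INS-only and GCG-only shares times the kept cells, the measured number was 0.760, 1.5 and 1.17 times as many. That product is not an expected number of pairs, because the rate at which cells were caught together was not measured. Split by depth, shallow cells made up a smaller share of all kept cells in the positive library, and whether deep and shallow cells differ in this was not tested. Shallow cells were 0.723% of positive, 1.61% of negative and 1.66% of all unsorted cells. Positive minus negative, they differed by -0.886 points (interval -1.63 to -0.212), and positive minus unsorted by -0.935 points (-1.64 to -0.273). Per 100 GCG-only cells, however, there were 7.11 shallow cells in positive, 6.82 in negative and 9.19 in unsorted libraries. Deep cells were 3.76%, 3.33% and 4.05% of kept cells, with intervals of all differences including 0.

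**Figure D3:**
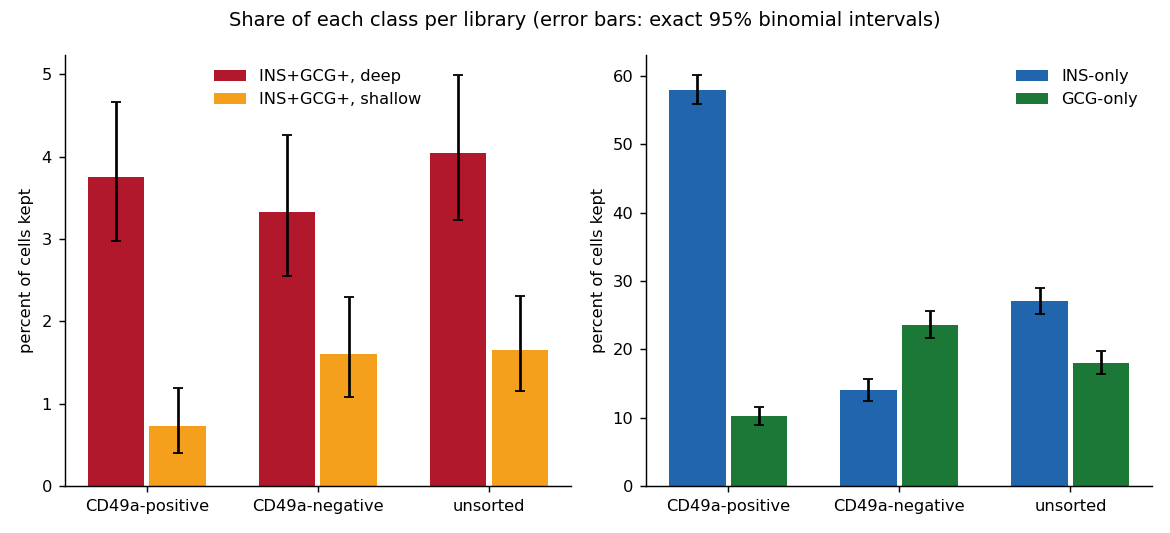
Share of kept cells in each library that were deep or shallow INS+GCG+ cells (left) and INS-only or GCG-only cells (right), in percent with exact 95% binomial intervals. Shallow INS+GCG+ cells are fewest in the positive library (0.723%), where INS-only cells are most frequent (58.0%).

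Hormone RNA was also present in barcodes outside the class. In GCG-only cells the median INS level was 54.0 per 10000 UMIs in positive, 55.1 in negative and 59.0 in unsorted libraries. In cells with TPH1 of at least 5 and FEV, both markers of enterochromaffin cells, the median INS level was 75.6, 10.2 and 10.5. In barcodes with under 1000 genes it was 570, 50.5 and 91.2, and 82.1% of these barcodes reached the INS limit in the positive library, against 8.25% and 8.97% in the negative and unsorted ones. By its median, GCG was scarcer than INS outside its own cells, at 0.902, 1.80 and 1.49 in INS-only cells and 23.8, 16.8 and 14.4 in barcodes with under 1000 genes. The GCG limit, which is lower than that of INS, was reached by 4.28%, 8.25% and 5.71% of these gene-poor barcodes. In the negative library this share was the same as for INS. INS-only and GCG-only cells lie under the limit of the other hormone by the rule itself.

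IAPP, the amyloid peptide that beta cells store with insulin, was therefore read beside INS. Over all INS-only cells there were 22.1 IAPP UMIs per 1000 INS UMIs in positive, 24.4 in negative and 20.7 in unsorted libraries. Gene-poor barcodes held 32.8, 29.6 and 46.8 IAPP UMIs per 1000 INS UMIs. Deep INS+GCG+ cells held 27.7, 16.1 and 14.1. Shallow INS+GCG+ cells held 19.9 (95% Poisson interval 18.2 to 21.7) in the positive library, but 2.70 (2.21 to 3.26) in the negative one and 2.68 (2.27 to 3.14) among unsorted cells. In the negative and unsorted libraries shallow cells thus held fewer summed IAPP UMIs per INS UMI than the INS-only, GCG-only, deep, gene-poor or TPH1-high barcodes of the same library. By the median per barcode the ratio was 0 and 0.322 in shallow cells of these libraries. It was 0 and 0 in both gene-poor and TPH1-high barcodes, 0 and 1.30 in GCG-only, 7.85 and 7.93 in INS-only and 6.32 and 6.99 in deep cells. By this median, shallow cells did not lie below the gene-poor or TPH1-high barcodes. The share of cells with no IAPP UMI was 62.1% of shallow cells in the negative library and 47.1% in the unsorted one, against 13.9% and 6.50% of INS-only and 56.0% and 47.0% of GCG-only cells there, so by this share shallow cells were near GCG-only cells. After thinning, IAPP was detected in 85.7%, 24.1% and 27.3% of shallow cells, 96.2%, 68.3% and 81.9% of deep cells, 92.4%, 76.2% and 85.8% of INS-only cells and 40.1%, 22.0% and 24.6% of GCG-only cells.

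**Figure D4:**
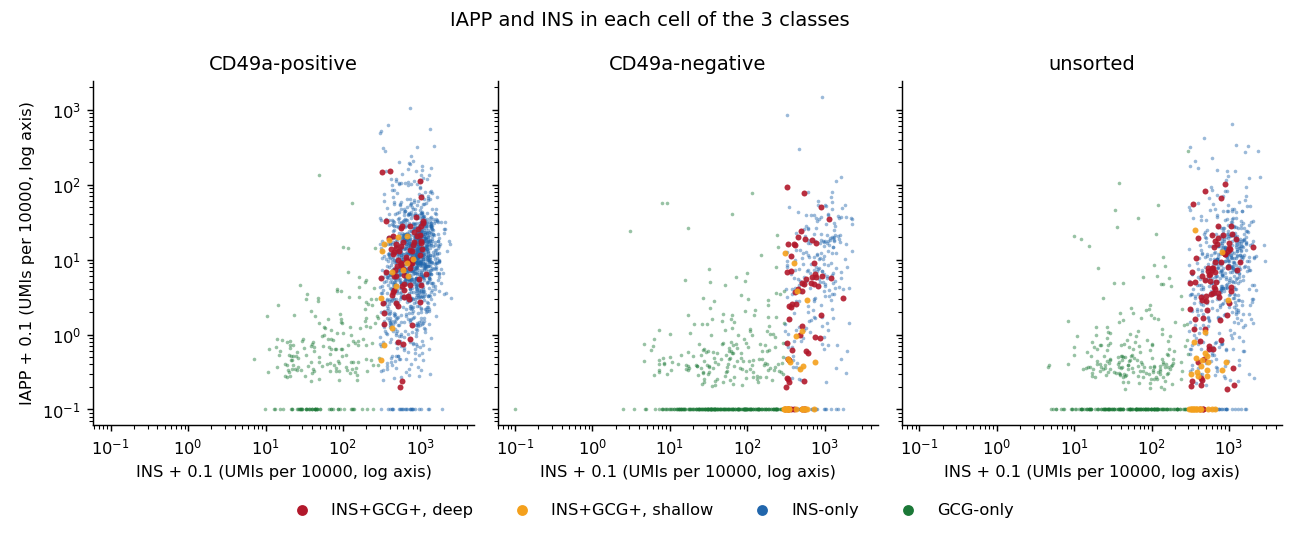
IAPP (y axis) against INS (x axis) in each INS+GCG+, INS-only and GCG-only cell, as UMIs per 10000 plus 0.1 on log axes, by library. Shallow INS+GCG+ cells (orange) lie mostly at the bottom of the IAPP axis in the negative and unsorted libraries, with medians of 0 and 0.182, and among the INS-only cells in the positive library, with a median of 7.21.

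The wider expression of the cells was measured on UMIs summed per library and class. A gene was tested against each other class with edgeR over 9 sums, library as a block, at an adjusted p under 0.05. With library as a block, the p-values measure the spread of the class differences across these 3 libraries, which differ by their sort. Against INS-only cells, 2498 genes were higher (14.7% of 17039 tested) and 2805 lower (16.5%), 5303 in all (31.1%), and against GCG-only cells 2547 were higher (14.9%) and 2353 lower (13.8%), 4900 in all (28.8%). At 1164 genes (6.83%) INS+GCG+ cells lay between the other classes, higher than one and lower than the other. Genes whose level follows INS or GCG from cell to cell had to differ between classes cut on these hormones, so the counts describe the classes. Without the unsorted library the counts were 2798 and 2353 genes in all, and without the positive library 2777 genes against GCG-only cells.

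Beta cell markers stood between the levels of INS-only and GCG-only cells. Of 18 markers, 16 were tested, INS not among them: 13 were lower and 2 higher than in INS-only cells, and 14 were higher and none lower than in GCG-only cells. Their median log2 difference was -0.59 from INS-only cells, against -0.01 over all genes tested, and 1.61 from GCG-only cells, against 0.01. Over all genes tested, 14.7% were higher and 16.5% lower than in INS-only cells, and 14.9% higher and 13.8% lower than in GCG-only cells. In shallow cells alone, 13 of the 16 markers were lower than in INS-only cells and 4 higher than in GCG-only cells. Of all genes, 7.75% and 0.179% were so in shallow cells. PDX1, a homeodomain factor that activates INS, had 74.5, 49.8 and 55.5 CPM in INS+GCG+ cells of the positive, negative and unsorted libraries. It had 95.9, 89.7 and 87.9 CPM in INS-only cells and 9.91, 7.00 and 5.56 CPM in GCG-only cells, and the classes did not overlap. PDX1 was lower than in INS-only cells (log2 -0.57 ± 0.09 SE, edgeR adjusted p = 5.70e-04) and higher than in GCG-only cells (3.11 ± 0.13, adjusted p = 3.98e-09). NKX6-1, another beta cell factor, took the same order (log2 -0.73 ± 0.13, edgeR adjusted p = 1.13e-03, and 2.58 ± 0.16, adjusted p = 1.25e-07). PCSK1, which cuts proinsulin, had 248, 157 and 195 CPM in INS+GCG+ cells, against 406, 346 and 374 CPM in INS-only cells and 38.1, 36 and 34.1 CPM in GCG-only cells.

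IAPP, one of these markers, varied between libraries. It had 1759, 776 and 859 CPM in INS+GCG+ cells, against 1900, 2142 and 2022 CPM in INS-only cells and 233, 133 and 286 CPM in GCG-only cells. In the positive library it was thus near the INS-only level, and in the other two libraries it was under the level of INS-only cells by over 2-fold. It was lower than in INS-only cells by edgeR (log2 -0.89 ± 0.23, adjusted p = 0.0101), but not by DESeq2 (adjusted p = 0.0783), without the negative library (edgeR adjusted p = 0.0741) or without library as a block (0.0578). MAFA, a factor of mature beta cells, was at 0.535, 0.692 and 0.109 CPM in INS+GCG+ cells, against 0.702, 2.35 and 1.02 CPM in INS-only cells and 0.108, 0.263 and 0.355 CPM in GCG-only cells.

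Alpha cell markers gave the mirror image. Of 17 markers, 15 were tested, GCG and DPP4 not among them: 14 were higher and none lower than in INS-only cells, while 11 were lower and none higher than in GCG-only cells. In shallow cells alone, 12 of the 15 were higher than in INS-only cells and 1 was lower than in GCG-only cells. Of all genes, 5.38% and 0.277% were so in shallow cells. Over all genes tested in all INS+GCG+ cells, 14.7% were higher than in INS-only cells and 13.8% lower than in GCG-only cells. In all INS+GCG+ cells the median log2 difference of the markers was 1.09 from INS-only cells and -0.52 from GCG-only cells, against -0.01 and 0.01 over all genes. IRX1 and IRX2 were higher than in INS-only cells (log2 1.16 ± 0.08 and 1.09 ± 0.07, edgeR adjusted p = 3.17e-07 and 1.94e-07) and lower than in GCG-only cells (-0.54 ± 0.07 and -0.33 ± 0.07, adjusted p = 1.26e-04 and 2.42e-03). The IRX2 call against GCG-only cells was lost without the unsorted library (edgeR adjusted p = 0.135).

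Other alpha cell genes differed in how far they were raised. GC, the vitamin D binding protein, had 38.6, 58.8 and 51.1 CPM in INS+GCG+ cells, against 10.6, 25.1 and 8.55 CPM in INS-only cells and 94.3, 114 and 87.2 CPM in GCG-only cells. TTR, the thyroxine carrier transthyretin, was higher than in INS-only cells (log2 1.05 ± 0.12, edgeR adjusted p = 3.94e-05), and its difference from GCG-only cells was -0.20 ± 0.12 (adjusted p = 0.225). FAP, the gene beyond GCG on chromosome 2, was at 0.802, 1.21 and 1.09 CPM in INS+GCG+ cells, against 0.119, 0.168 and 0.170 CPM in INS-only cells and 2.69, 2.37 and 2.48 CPM in GCG-only cells. FAP was higher than in INS-only cells (log2 2.83 ± 0.44, edgeR adjusted p = 3.57e-04) and lower than in GCG-only cells (-1.19 ± 0.31, 0.0112). The second FAP call was lost without the positive library (adjusted p = 0.0865), without the unsorted library (0.0893), by DESeq2 (0.0708), with doubled hormone limits (0.298), in shallow cells alone (0.927) and with all classes at that depth (0.891). PCSK2, which cuts proglucagon, had 111, 154 and 137 CPM in INS+GCG+ cells, against 93.7, 130 and 116 CPM in INS-only cells and 239, 214 and 249 CPM in GCG-only cells.

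Within INS+GCG+ cells of a library, the level of INS ran with that of PDX1 (Spearman rho 0.36 over 93 positive cells, 0.42 over 89 negative and 0.48 over 117 unsorted ones). INS and GCG themselves had rho of -0.01, -0.23 and -0.20. These are descriptions across cells that share a library, and depth ran with several of them (rho of PDX1 with UMIs 0.22, 0.46 and 0.52).

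Deep and shallow cells gave different accounts of the class. Expressed as a position, where 0 is the INS-only and 1 the GCG-only level in CPM of the same library, PDX1 stood at 0.238, 0.424 and 0.325 in deep cells of the positive, negative and unsorted libraries, and at 0.403, 0.800 and 0.853 in shallow cells. NKX6-1 stood at 0.344, 0.542 and 0.360 in deep cells and at 0.500, 0.940 and 0.923 in shallow cells. By edgeR adjusted p under 0.05 alone, 3739 of 17039 genes were higher and 3526 lower in INS-only than in GCG-only cells. Positions were summarised over those that also differed at least 2-fold in the fit, with a mean of at least 20 CPM. They also had to differ at least 2-fold in the library itself (412, 404 and 430 genes). Their median position was 0.40, 0.59 and 0.40 in deep cells and 0.67, 0.85 and 0.99 in shallow cells. Shallow cells of the unsorted library were therefore at the GCG-only level for the typical such gene, and those of the positive library were not.

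The position of INS in shallow cells was 0.471 in positive, 0.552 in negative and 0.557 in unsorted libraries. That of GCG was 0.552, 0.511 and 0.578, so GCG was also well under its GCG-only level. By the same limits, but without that on the single library, 273 genes were higher in INS-only than in GCG-only cells. Of these, 40, 22 and 8 had a lower position than INS, that is, lay nearer to the INS-only level. The rule put a floor on INS but not on these genes, so this comparison is a description. ITGA1, the sorted antigen and a gene of INS-only cells here, had 36.3, 17.9 and 16.8 CPM in shallow cells, 77.6, 31.7 and 75.1 CPM in deep cells, 130, 80.3 and 114 CPM in INS-only cells and 26.0, 14.5 and 17.9 CPM in GCG-only cells. DPP4 in shallow cells (249, 287 and 252 CPM) was near its level in GCG-only cells (256, 268 and 222 CPM).

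**Figure D5:**
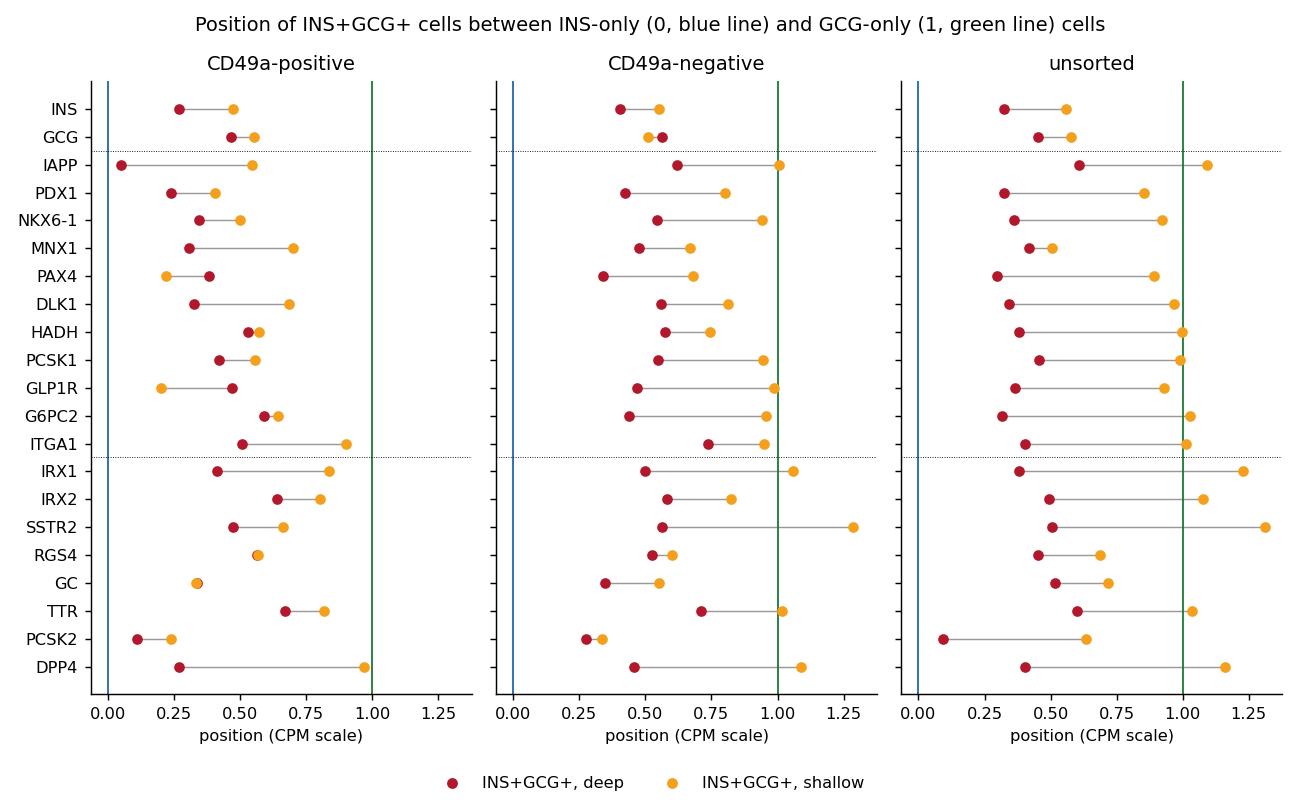
Position of INS, GCG, 11 genes higher in INS-only cells and 8 genes higher in GCG-only cells, in deep (red) and shallow (orange) INS+GCG+ cells of each library, where 0 is the INS-only and 1 the GCG-only level in CPM. In the unsorted library the shallow cells lie near 1 for most genes (IAPP 1.09, PCSK1 0.989, DPP4 1.16) while INS lies at 0.557 and GCG at 0.578.

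Tested the same way, shallow cells were higher than INS-only cells at 930 genes (5.38% of 17298 tested) and lower at 1340 (7.75%), 2270 in all (13.1%). They differed from GCG-only cells at 79 genes (0.457%), 31 higher (0.179%) and 48 lower (0.277%). They lay between the other classes at 33 genes (0.191%). The same 3 sums entered both comparisons, and the difference between deep and shallow cells was not tested directly. The genes named next were chosen after their values were seen. PDX1 was higher in shallow cells than in GCG-only cells (log2 2.01 ± 0.30, edgeR adjusted p = 3.66e-03), with 61.2, 23.6 and 17.7 CPM against 9.91, 7.00 and 5.56 CPM in GCG-only cells. So were PAX4 (1.55 ± 0.30, adjusted p = 0.0234), the homeodomain factor MNX1 (0.92 ± 0.15, 6.24e-03), the imprinted gene DLK1 (1.47 ± 0.25, 7.75e-03) and the mitochondrial beta-oxidation enzyme HADH (1.38 ± 0.30, 0.0452). HADH was near the GCG-only level in the unsorted library (14.3 against 14.0 CPM), but not in the positive (95.6 against 23.2 CPM) or negative one (51.6 against 16.6 CPM). DLK1 had 120, 94.2 and 31.2 CPM in shallow cells, against 30.1, 28.6 and 21.3 CPM in GCG-only cells. NKX6-1 (1.25 ± 0.34, adjusted p = 0.173), PCSK1 (1.14 ± 0.30, 0.129), GLP1R (0.98 ± 0.46, 0.544) and IAPP (0.55 ± 0.43, 0.777) did not pass the test. With INS-only and GCG-only cells limited to the same depth, NKX6-1 (log2 2.56, edgeR adjusted p = 1.48e-03) and PCSK1 (1.91, 3.05e-03) did pass it, and GLP1R (1.95, 0.0937) and IAPP (1.04, 0.309) did not. All 4 are beta cell genes, and all had log2 values of -1.81 or less against INS-only cells in the same fit.

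The 48 genes lower in shallow than in GCG-only cells included TM4SF4, a membrane protein enriched in alpha cells (log2 -1.26 ± 0.26, edgeR adjusted p = 0.0305). With cells of all 3 classes limited to the same depth, this call was lost (log2 -1.02, adjusted p = 0.0967). The alpha cell factors IRX1 (log2 0.04 ± 0.11, edgeR adjusted p = 0.959) and IRX2 (-0.09 ± 0.10, 0.863) did not pass the test. Of 16 genes of glucose sensing and excitability, 1 was higher in shallow than in GCG-only cells, and 2 were higher and 6 lower than in INS-only cells. Over all genes tested in shallow cells, 0.179% were higher than in GCG-only cells, and 5.38% were higher and 7.75% lower than in INS-only cells.

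Genes beyond both classes were also counted. In all INS+GCG+ cells, 483 genes were above both classes (2.83% of 17039) and 641 below both (3.76%). Most differences were small: the median of the smaller log2 difference was 0.28 for the genes above, and 4 of the 483 reached 1.5-fold, while 107 of the 641 did so below. Among genes with a mean of at least 20 CPM and the same direction in all 3 libraries, the largest smaller difference above was 0.49 (RPL41). Below, only ZRANB2-AS2 and AQP4-AS1 passed 1.5-fold there, and EPHA6 came next at -0.57. Most of the 107 genes thus had a mean under 20 CPM. Without the positive library 161 genes were above and 198 below both, and without the unsorted library 77 and 131. Ribosomal protein genes made up 48 of the genes above both. RPL41 had 3186, 3493 and 3203 CPM in INS+GCG+ cells, against 2332, 2184 and 2415 CPM in INS-only cells and 2131, 2827 and 2499 CPM in GCG-only cells (log2 0.55 ± 0.11 and 0.49 ± 0.11, edgeR adjusted p = 1.96e-03 and 4.00e-03). RPS28, RPS23, the ferritin heavy chain FTH1, the keratin KRT10 and the signalosome subunit COPS9 were among the 12 largest above both at a mean of at least 20 CPM. Without the unsorted library, RPL41, RPS28 and FTH1 lost a call (edgeR adjusted p = 0.0789, 0.0565 and 0.0757 against GCG-only cells).

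Depth moved with these genes. Of 79 ribosomal protein genes tested, 61 were higher in deep cells than in INS-only cells and 69 than in GCG-only cells, against 1 and 0 in shallow cells. Over all genes tested, 14.4% and 17.3% were higher in deep cells, and 5.38% and 0.179% in shallow cells. The count of 0 against GCG-only cells was thus near the share over all genes. Ribosomal protein genes took 7.24%, 7.54% and 6.99% of UMIs in deep cells and 6.32%, 5.93% and 5.61% in shallow cells. Within INS-only cells the share was likewise 6.29%, 6.11% and 6.31% above the median depth and 5.28%, 4.89% and 5.04% at or below it. The part of depth in the result was not tested. Among genes with a mean of at least 20 CPM and the same direction in all 3 libraries, those furthest below both classes included antisense RNAs. These were ZRANB2-AS2 (log2 -0.64 ± 0.12 and -0.73 ± 0.13, edgeR adjusted p = 1.63e-03 and 7.62e-04) and AQP4-AS1 (-0.61 ± 0.07 and -0.66 ± 0.07, 3.30e-05 and 1.36e-05). Whether the counting used strand is not given in the sources used here. The ephrin receptor EPHA6, the adhesion receptor ADGRL3, MIPOL1 and the glutamate receptor subunit GRIK2 were among the 12 furthest below at that mean CPM. Shallow cells alone had 4 genes above both (0.0231%) and 11 below (0.0636%), while deep cells alone had 678 above (3.98%) and 838 below (4.92%). The 4 were SYNE2, a nuclear envelope protein, NACAD, the Wnt cofactor PYGO2 and the growth factor midkine (MDK), named after their values were seen.

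Somatostatin (SST), the hormone of delta cells, reached 10 per 10000 UMIs in 20 of 93 INS+GCG+ cells from the positive library (21.5%), 32 of 89 from the negative (36%) and 25 of 117 unsorted ones (21.4%). The shares were 10.1%, 13.1% and 13.4% of INS-only cells and 19.9%, 32.9% and 28.1% of GCG-only cells. INS+GCG+ cells with SST at this level had median depths of 84674, 68452 and 93150 UMIs, against 83964, 64509 and 82051 UMIs over all INS+GCG+ cells. Ghrelin (GHRL) reached this level in none of the 299 cells. Summed SST was lower than in INS-only cells (log2 -0.81 ± 0.10, edgeR adjusted p = 5.93e-05), and this call was lost without library as a block (adjusted p = 0.099). Of 6 delta cell markers tested, 3 were lower and none higher than in INS-only cells, and 1 was higher and 3 were lower than in GCG-only cells. Over all genes tested, 16.5% were lower and 14.7% higher than in INS-only cells, and 14.9% were higher and 13.8% lower than in GCG-only cells. The 1 higher delta marker was thus near the share over all genes. In shallow cells alone, no delta marker differed from GCG-only cells by the test. FEV, a factor of endocrine progenitors and enterochromaffin cells, was higher than in INS-only cells (log2 1.15 ± 0.08, edgeR adjusted p = 9.89e-07), and differed from GCG-only cells by 0.20 ± 0.08 (adjusted p = 0.0869).

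The remaining lists are read against the shares over all genes tested, 14.7% higher and 16.5% lower than in INS-only cells and 14.9% higher and 13.8% lower than in GCG-only cells. Of 8 proliferation markers, 6 were higher than in INS-only cells and none differed from GCG-only cells by the test. MKI67 was higher than in INS-only cells (log2 1.41, edgeR adjusted p = 0.0268; 0.242 without the negative library, 0.110 by DESeq2), as was TOP2A (1.60, 0.00859), a call DESeq2 did not make. With doubled hormone limits both were lower than in INS-only cells. Few cells carried them: at least 5 MKI67 UMIs were found in 1 of 93, 4 of 89 and 3 of 117 INS+GCG+ cells. In the negative and unsorted libraries, 1 shallow cell each held all MKI67 UMIs of its shallow group. Of 9 immediate early genes, 6 were higher and none lower than in INS-only cells, and none was higher and 1 lower than in GCG-only cells. JUN had 175, 222 and 192 CPM in INS+GCG+ cells, against 122, 103 and 140 CPM in INS-only cells and 217, 254 and 224 CPM in GCG-only cells. Of 10 genes of the unfolded protein response, 8 were higher than in GCG-only cells, while none was higher and 2 were lower than in INS-only cells, near the share over all genes. In shallow cells alone, none of the 10 was higher than in GCG-only cells, against 0.179% of all genes tested. XBP1, the factor that builds the secretory apparatus, had 136, 102 and 112 CPM in INS+GCG+ cells, against 140, 140 and 142 CPM in INS-only cells and 64.8, 69.2 and 69.1 CPM in GCG-only cells. Its difference from GCG-only cells did not pass the test in shallow cells alone (log2 0.32, edgeR adjusted p = 0.519) or with all classes shallow (0.45, 0.194). The somatostatin receptor SSTR2 was higher than in INS-only cells (log2 1.70 ± 0.10, edgeR adjusted p = 1.08e-07) and lower than in GCG-only cells (-0.50 ± 0.10, 1.63e-03), though at 0.067 in shallow cells alone.

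Counts in these small lists are given beside the same shares over all genes (14.7% and 16.5% against INS-only cells, 14.9% and 13.8% against GCG-only cells), and those of prohormone processing and integrin genes against INS-only cells were near them. Of 7 epsilon and PP cell markers, 3 were higher than in INS-only cells and 5 lower than in GCG-only cells. Of 8 enterochromaffin markers tested, 1 was higher and 2 were lower than in INS-only cells, and 5 were higher and none lower than in GCG-only cells. Of 8 endocrine progenitor markers, 1 was higher and 3 lower than in INS-only cells, and 6 were higher and 1 lower than in GCG-only cells. Of 10 genes of prohormone processing, 2 were higher and 3 lower than in INS-only cells, and 6 were higher and 2 lower than in GCG-only cells. Of 8 integrin genes, 2 were higher and 1 (ITGA1, log2 -0.90 ± 0.11, edgeR adjusted p = 7.11e-05) lower than in INS-only cells, and 2 were higher and 3 lower than in GCG-only cells. In shallow cells alone, 1 progenitor marker was higher than in GCG-only cells and no other gene of these lists differed from them by the test. Over all genes, 0.179% were higher and 0.277% lower there.

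Acinar and mesenchyme markers were close to absent. The 4 acinar markers summed to 0.173 to 0.401 CPM in INS+GCG+ cells, with CELA3A and PTF1A at 0 in all 3 libraries, against 0.168 to 2.08 CPM in INS-only and 0.296 to 0.421 CPM in GCG-only cells. The 5 mesenchyme markers summed to 1.04 to 1.53 CPM, with DCN, LUM and PDGFRA at 0, against 1.76 to 2.50 CPM in INS-only and 0.946 to 1.62 CPM in GCG-only cells. Of 3 endothelial markers, PECAM1 and CDH5 were at 0, and EGFL7 alone gave sums of 21.3 to 24.9 CPM, against 20.5 to 23.5 CPM in INS-only and 17.5 to 20.2 CPM in GCG-only cells. The 4 neural markers, some of which endocrine cells also express, summed to 587 to 683 CPM, against 685 to 753 CPM in INS-only and 512 to 554 CPM in GCG-only cells. The 6 duct markers summed to 61.0 to 125 CPM, against 47.7 to 53.1 CPM in INS-only and 79.3 to 107 CPM in GCG-only cells.

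Between the sorted libraries, INS+GCG+ cells were compared by size only, as a log2 ratio of CPM with 10 CPM added. In the positive library, 4 of 3903 genes above the count minimum (50 CPM and 50 UMIs in the higher library) were higher than in the negative library by 2-fold or more (0.102%), and 4 were lower (0.102%). The higher genes were GAP43, a growth cone protein (135 against 51.4 CPM, log2 1.24), the retinol carrier RBP4 (115 against 44.5 CPM), IAPP (1759 against 776 CPM) and ITGA1 (74.7 against 29.6 CPM). The lower ones were MT1X, a metallothionein (15.0 CPM, interval 12.3 to 18.0, against 72.0 CPM, 65.2 to 79.2), NPW, a neuropeptide precursor (117 against 353 CPM), the parathyroid hormone 2 receptor PTH2R (24.1 against 67.8 CPM) and SST (1409 against 3063 CPM). BRINP3 and SERPINA1 came next, at log2 0.91 and -0.97. In the positive against the unsorted library, IAPP was the 1 gene higher (1759 against 859 CPM) and SST the 1 gene lower (1409 against 2886 CPM), each 0.026% of 3850 genes. In the negative against the unsorted library, 5 of 3895 genes were higher (0.128%), led by NPW (353 against 101 CPM) and MT1X (72.0 against 16.3 CPM), and none was lower (0.0%). The counts depended on the CPM added, and depth differed between the groups (median 83964, 64509 and 82051 UMIs).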

How the data were processed

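Droplet single-cell RNA sequencing gave UMI counts per gene and barcode for 3 libraries, 1 per sorting group. The counts were deposited by the authors as filtered matrices of 36601 genes, made with Cell Ranger 7.1.0 on GRCh38, per the submitters' processing notes. The genome annotation release is not given in the sources used here; gene positions are from GENCODE 29 and promoters from RefSeq. The members and gene lists were chosen with earlier results of these data known. No doublet caller was run; cells were split by depth instead.

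Levels per cell are UMIs per 10000; CPM are of UMIs summed over cells. The sums per library and class (9) were tested with edgeR 4.0.16 in R 4.3.3 (TMM, filterByExpr, quasi-likelihood test, library as a block), with Benjamini-Hochberg adjustment over all genes and a threshold of 0.05. INS, GCG, TPH1 and DPP4 got no test. DESeq2 1.42.0 was an alternative. Alternatives also changed the low-count filter, the block, the libraries, the depth of the cells, the limits and the scale. The depth-matched fit of all classes and the fit on deep cells were chosen after seeing the data. The genes named were the members of the lists, the 12 with the largest smaller log2 difference above and below both classes (mean CPM of at least 20, same direction in 3 libraries), and the 5 with the largest ratio per direction of positive over negative libraries. On simulated counts of 16772 genes, 57% of 1.5-fold and 95% of 3-fold changes were recovered against INS-only cells, and 59% and 91% against GCG-only cells. Of the calls, 5% and 5.06% were false. All classes had the same means there except for a small set of changed genes, at the sizes of the full sums. The shallow fits were not simulated. Intervals are exact binomial or Poisson at 95% and cover counting error only. Tables and figures used Python 3.11.15, numpy 2.4.6, scipy 1.17.1, pandas 2.3.3 and matplotlib 3.10.9. Results for some genes of the lists are not reported here.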

Additional observations from a re-analysis of the deposited data

How the results depend on the processing

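Counts of genes moved most with depth. Against INS-only cells (5303 in all), the count was 2270 with shallow INS+GCG+ cells alone, 2562 with all classes shallow and 3358 with doubled hormone limits, and 2798 to 4214 without 1 library. Against GCG-only cells (4900) it was 79 with shallow cells, 148 with all classes shallow and 2353 to 5409 without 1 library. Genes above both classes (483) numbered 4 and 5 at these shallow depths, 179 with no replicate block and 77 to 479 without 1 library. Genes below both (641) numbered 11 and 15, 349 with no replicate block, 343 by DESeq2 and 131 to 607 without 1 library. With no replicate block, 3962 genes differed from INS-only and 3696 from GCG-only cells. The cause of these moves was not tested, and the shallow fits rest on fewer cells.

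The shares of INS+GCG+ cells became 1.25%, 0.555% and 1.22% in the positive, negative and unsorted libraries with doubled limits, 1.26%, 2.74% and 2.55% among cells at or below the median depth of INS-only cells, and 6.05% in the negative library with no TPH1 limit. The ratio to INS-only cells was 0.999 for genes per cell after thinning, where equal depth is set by the thinning, so it is no second measure of depth. Between libraries, the positive over negative count was 1 (50 CPM added), 7 (cells weighted equally) and 7 (no minimum) higher, and 7 (1 CPM added), 2 (50 CPM) and 10 (no minimum) lower. Positive over unsorted gave 0 higher (50 CPM) and 2 lower (1 CPM). Negative over unsorted gave 1 (50 CPM), 1 (equal weights) and 10 (no minimum) higher, and 1 lower (1 CPM).

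Many calls of named genes were lost at shallow depth, and few turned round in direction. Of 71 calls, 32 stayed, 32 were lost and 7 turned round with shallow INS+GCG+ cells alone. The numbers were 38, 30 and 3 with all classes shallow. With shallow INS+GCG+ cells alone, the log2 difference from GCG-only cells was 0.042 for IRX1, 0.067 for SSTR2, -0.0020 for RPL41 and -0.025 for KRT10, and that from INS-only cells was -0.0045 for RPS23, -0.19 for KRT10 and 0.060 for EPHA6. With all classes shallow, the difference from GCG-only cells was 0.059 for SSTR2, 0.46 for SST and 0.13 for EPHA6. With doubled limits, that from INS-only cells was -8.40 for MKI67 and -4.32 for TOP2A, which then rest on few cells. The cause was not tested.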

Other observations

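Some barcodes that the cell filter left out also met both hormone limits and the TPH1 limit. With under 1000 genes there were 58 of 1988 in the positive, 4 of 412 in the negative and 4 of 368 in the unsorted library. With MALAT1 under 0.2% there were 14 of 319, 14 of 173 and 14 of 205, with median depths of 28935, 76442 and 62401 UMIs. With over 20% mitochondrial UMIs there were 0 of 130, 2 of 178 and 3 of 187.

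Other pairs were found in fewer kept cells, but the limits were not alike. TPH1 had to reach 5 here, the minimum of the TPH1-high cells, rather than 1. Not all of the 41 cells with both hormones and TPH1 at or above 1 therefore count under all 3. INS and TPH1 without GCG were found in 10, 14 and 21 cells of the positive, negative and unsorted libraries, GCG and TPH1 without INS in 1, 12 and 8, and all 3 in 2, 0 and 0.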
